A study of Mus musculus with 13 samples.

Results

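The transcriptomes of Lin-cKit+ bone marrow cells from 4 moribund NPmut mice were compared with those from 3 p53mut mice. These are 7 of the 13 RNA-Seq libraries of a study of acute myeloid leukemia (AML), and they were chosen by their genotype labels. Both groups carried *Mx1-Cre*, a Cre transgene driven by an interferon-inducible promoter, and 1 allele of p53 R172H, a missense mutation of the DNA-binding domain, at the endogenous locus. The NPmut mice (Mx1-Cre; p53 R172H/+; Nras G12D/+) also carried Nras G12D/+, the constitutively active form of the RAS GTPase, received no pI-pC, and were sampled at the moribund stage. The p53mut mice (Mx1-Cre; p53 R172H/+) had been injected at about 6 weeks of age with 100 µg of pI-pC, a double-stranded RNA mimic that induces interferon and thereby Cre, 3 times, and were age-matched. Values of single mice are given in the order of their replicate numbers, 1 to 3 for p53mut and 1 to 4 for NPmut. Oncogenic *Nras*, the moribund stage, and the lack of pI-pC came together in the NPmut mice, so that their parts in any difference below cannot be told apart. The study asked what oncogenic NRAS and mutant p53 do jointly in hematopoietic stem and progenitor cells (HSPCs), and both sides of this contrast have the p53 R172H/+ genotype. The paper reports recombined *Nras* and *p53* alleles in the marrow of moribund NPmut mice, which had no pI-pC. Whether the share of recombined cells or the level of mutant p53 was equal in the groups was not tested here. The other 6 libraries came from 3 pI-pC–treated control (Mx1-Cre) and 3 pI-pC–treated NrasG12D (Mx1-Cre; Nras G12D/+) mice, and are used here for the shared estimate of spread and as a reference for oncogenic *Nras* with wild-type p53.

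Lin-cKit+ cells are a mixture of hematopoietic stem cells, multipotent progenitors, and progenitors already restricted to the granulocyte-monocyte or megakaryocyte-erythroid branch. GATA2 and GATA1, with their cofactors FOG1, SCL/TAL1, LMO2, and LDB1, sustain stem cells and drive the erythroid, megakaryocytic, and mast cell branches, whereas PU.1, C/EBP factors, and IRF8 direct granulocyte and monocyte fates. RAS signals through RAF, MEK, and ERK to immediate-early transcription factors, and Toll-like receptors (TLRs) signal through NF-κB, whose activity is limited by inhibitors that NF-κB itself induces. In a bulk sample of sorted cells, fewer cells of a type and less RNA per cell cannot be told apart.

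The libraries held 13357504 to 16712599 assigned counts in the p53mut mice and 12576174 to 29124022 in the NPmut mice. *Kit*, the receptor on which the cells were sorted, was abundant at 552, 498 and 712 CPM in the p53mut mice and 370.4, 288, 449.9 and 379 CPM in the NPmut mice, and *Cd3e*, *Cd8a*, *Cd79a*, and *Ly6g*, markers of T cells, B cells, and neutrophils, were below 1 CPM (read counts scaled to library size) in every one of the 7 mice. Other genes of these lineages were not, as *S100a9*, of mature neutrophils, was at 38.1, 12.9 and 36.2 CPM in the p53mut mice and 36.4, 93.3, 3.54 and 87.2 CPM in the NPmut mice and *Ighm*, the immunoglobulin heavy chain, is described with the lymphoid genes. As a measure of background reads, 1461 genes of olfactory and vomeronasal receptors, which HSPCs are not known to use, took 58.9 to 138 CPM in the p53mut mice and 17.5 to 57.3 CPM in the NPmut mice. The groups did not overlap in it (exact permutation test over 35 splits of the mice, 2-sided, p = 0.0286, the smallest value 4 against 3 mice can give). Its part in the results was not tested beyond the fit with this value as a term, in which 67 of 151 named DEGs lost their call and which is given below for the gene lists whose counts it moved by over 1.5 times. By Y-linked genes, 1 of the p53mut mice and 2 of the NPmut mice were male. *Nras* stood at 65.8, 56.3 and 62.1 CPM in the p53mut mice and 57.8, 50.4, 57.97 and 52.2 CPM in the NPmut mice (log2 fold change -0.17 ± 0.095, adjusted p = 0.302). *Trp53* stood at 128, 125 and 124 CPM in the p53mut mice and 95.01, 106, 97.5 and 78.04 CPM in the NPmut mice (log2 fold change -0.41 ± 0.104, adjusted p = 0.0207), so that every NPmut mouse was below every p53mut mouse by less than 2-fold. Counts per gene do not tell mutant from wild-type transcripts.

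In all, 933 of 17795 genes tested, or 5.24%, differed between NPmut and p53mut HSPCs by at least 2-fold with an adjusted p under 0.05 in edgeR's quasi-likelihood test. Such genes are called DEGs here. 382 of them (2.15% of the genes tested) were higher in NPmut mice and 551 (3.1%) were lower. At an adjusted p under 0.05 alone, 856 genes (4.81%) were higher and 915 (5.14%) lower. Genes tested had a median log2 fold change of 0.03. The lower DEGs went further, as 250 of them but 109 of the higher ones differed by at least 4-fold, and 252 of the lower and 63 of the higher DEGs had a mean below 1 on the log2 CPM scale over the 7 mice. Without p53mut mouse 3 there were 169 higher and 264 lower DEGs, and without p53mut mouse 1 there were 204 and 379. Fitting only the 7 libraries gave 213 higher and 265 lower DEGs, and with the background reads as a term there were 329 and 313. NPmut mice also varied more among themselves, with a median SD of log2 CPM over genes of 0.35 against 0.22 in p53mut mice. The plot of DEG counts by setting shows these values together.

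**Figure D1:**
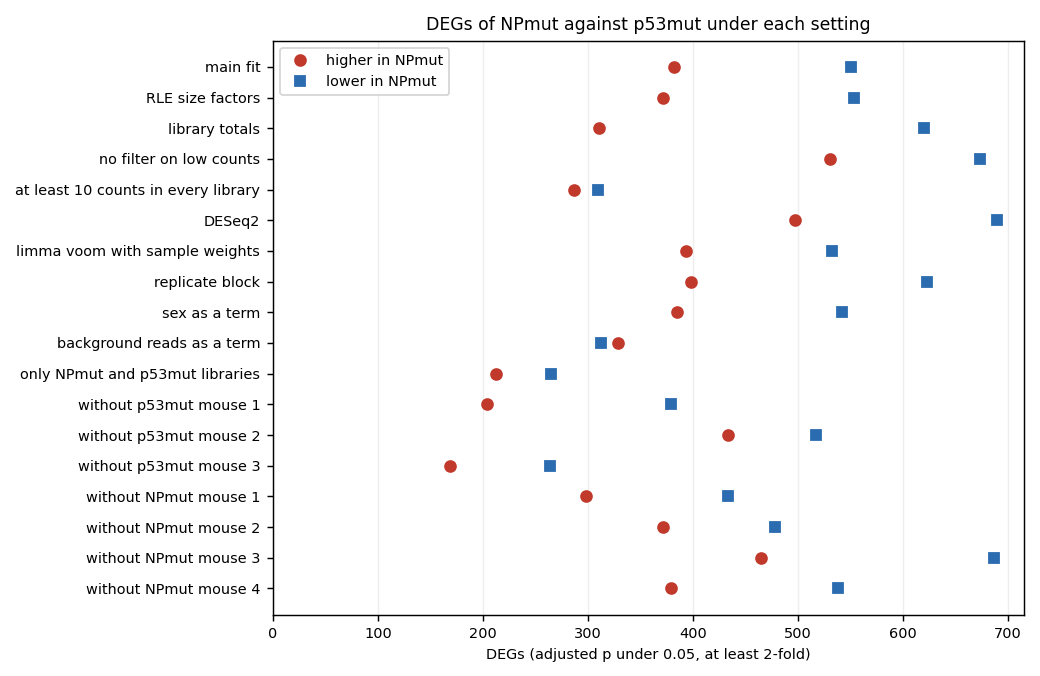
Number of genes that differed between NPmut and p53mut mice (adjusted p under 0.05 and at least 2-fold, x axis) in the fit over all 13 libraries and under each alternative (y axis), with circles for genes higher in NPmut and squares for genes lower. Lower DEGs outnumber higher DEGs in every setting but the one with background reads as a term, and the smallest counts are those without p53mut mouse 3.

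The 10 largest increases described first are those of DEGs whose groups did not overlap and whose mean was at least 1 on the log2 CPM scale, and other DEGs with larger fold changes, such as *Atf3* and *Nr4a1*, are given with their lists. *Pmaip1* (NOXA), a BH3-only protein that promotes apoptosis, stood at 3.0997, 2.88 and 1.45 CPM in the p53mut mice and 47.5, 52.2, 3.59 and 41.99 CPM in the NPmut mice (log2 fold change 3.89 ± 0.72, adjusted p = 0.00584), and NPmut mouse 3 lay close to the p53mut mice while the other NPmut mice were more than 10 times as high as any of them. The level of *Lgals3*, encoding the macrophage lectin galectin-3, was 0.738, 1.77 and 0.695 CPM in the p53mut mice and 11.2, 28.8, 7.88 and 9.08 CPM in the NPmut mice (log2 fold change 3.75 ± 0.61, adjusted p = 0.00202), with no overlap. *Klf4*, a transcription factor of monocyte differentiation, was at 2.36, 11.3 and 1.79 CPM in the p53mut mice and 44.4, 50.4, 20.9 and 49.96 CPM in the NPmut mice (log2 fold change 3.02 ± 0.604, adjusted p = 0.00861). *Tnf*, the inflammatory cytokine, rose from 2.44, 1.77 and 1.56 to 21.6, 16.6, 5.63 and 17.8 CPM (log2 fold change 3.003 ± 0.4001, adjusted p = 0.000585). *Clec9a*, a receptor of dendritic cells, *Hopx*, a homeodomain-only cofactor, *Jaml*, a junctional adhesion molecule of leukocytes, and *Id2*, an inhibitor of E proteins, rose by 2.82 ± 0.53, 2.82 ± 0.47, 2.79 ± 0.43, and 2.75 ± 0.34 on the log2 scale (± SE). The genes *Pdzd4* and *Ctnnd2* completed the 10 largest increases, at 3.27 ± 0.46 and 2.76 ± 0.43. These 10 kept their call with each of the 7 mice left out in turn, but *Pmaip1* lost it with background reads as a term (adjusted p = 0.113) and with limma voom (adjusted p = 0.186), and *Klf4* with background reads as a term (adjusted p = 0.0821).

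The 10 largest decreases were taken by the same limits. *Tek*, the angiopoietin receptor TIE2 of quiescent stem cells, was at 10.7, 7.37 and 16.5 CPM in the p53mut mice and 0.9602, 0.694, 1.61 and 0 CPM in the NPmut mice (log2 fold change -3.74 ± 0.499, adjusted p = 0.000671), and its relative *Tie1* at 21.9, 15.9 and 24.8 CPM in the p53mut mice and 3.13, 1.27, 2.09 and 2.04 CPM in the NPmut mice (log2 fold change -3.297 ± 0.27, adjusted p = 3.24e-05). Neither overlapped between the groups. *Grb10*, an adaptor that dampens receptor tyrosine kinase signals, fell from 49.96, 44.97 and 63.7 to 6.22, 3.36, 7.02 and 3.05 CPM (log2 fold change -3.42 ± 0.25, adjusted p = 1.71e-05) and had the smallest adjusted p of the 20 leading genes. *Slc18a2*, the vesicular monoamine transporter of mast cells and platelets, stood at 28.04, 19.6 and 40.7 CPM in the p53mut mice and 3.34, 1.35, 7.02 and 1.02 CPM in the NPmut mice (log2 fold change -3.19 ± 0.52, adjusted p = 0.00285). The platelet genes *Cavin2*, *Trpc6*, *Mmrn1*, and *Gp1ba*, with *Gdf3*, a TGF-β family ligand, and *Timp3*, a metalloproteinase inhibitor, changed by -3.88 ± 0.47, -3.796 ± 0.57, -3.37 ± 0.45, -3.16 ± 0.41, -3.49 ± 0.36, and -3.11 ± 0.404. The 10 largest decreases also kept their call with each mouse left out. In the plot of single genes by mouse, *Tek* and *Pf4* of the NPmut mice lie at the foot of the axis.

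**Figure D2:**
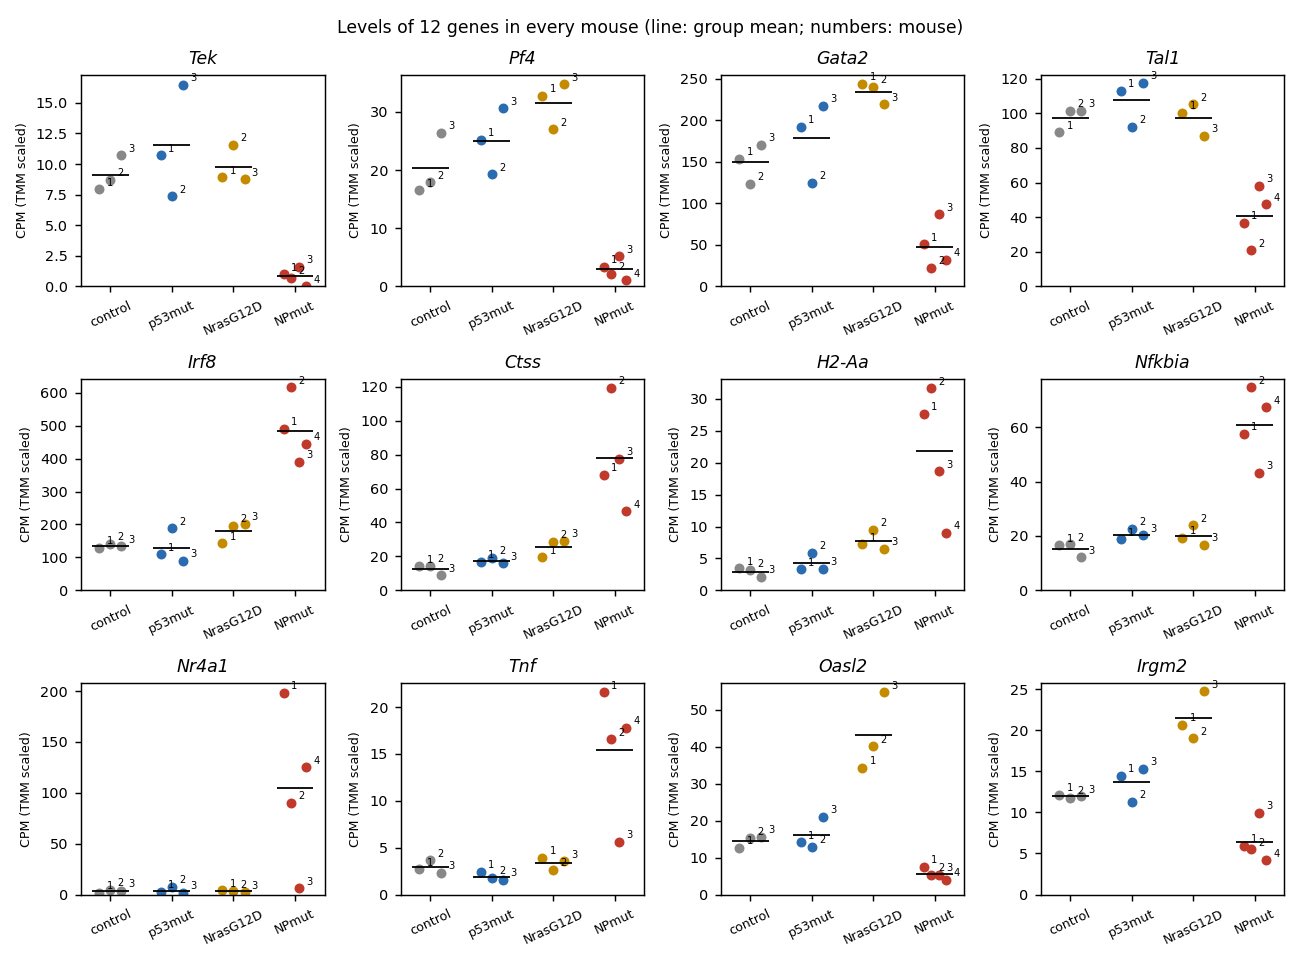
Level of 12 genes in each of the 13 mice, in CPM scaled by the trimmed mean of M values (TMM), with the 4 groups on the x axis, 1 point a mouse (numbered), and the group mean as a line. *Tek*, *Pf4*, *Gata2*, and *Tal1* of the NPmut mice lie below all other mice, *Irf8*, *Ctss*, and *Nfkbia* above them, NPmut mouse 3 is the lowest NPmut mouse for *Nr4a1* and *Tnf*, and *Oasl2* and *Irgm2* are highest in NrasG12D and lowest in NPmut mice.

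The 36 gene lists described next cover lineages and pathways, and a gene can stand in more than 1 of them. For every list, the counts of higher and lower DEGs stand against 2.15% and 3.1% of all genes tested. Genes of hematopoietic stem cell identity were often lower. Of 30 tested genes, 18 were lower and 0 higher, against 3.1% and 2.15% of all genes, and the median log2 fold change was −1.44. The summed level of the list was 562 to 966 CPM in the p53mut mice and 185 to 367 CPM in the NPmut mice. Besides *Tek* and *Tie1*, *Slamf1* (CD150), a surface marker of long-term stem cells, fell from 6.57, 2.36 and 6.195 to 0.9602, 0.26997, 0.697 and 0.0848 CPM (log2 fold change -3.26 ± 0.53, adjusted p = 0.00189), and *Esam*, an adhesion molecule of stem cells, from 4.94, 3.39 and 5.09 to 0.9602, 0.424, 0.536 and 0 CPM (log2 fold change -3.13 ± 0.54, adjusted p = 0.00261). Further DEGs of the list were *Fgd5*, *Vwf*, *Mycn*, *Myct1*, *Meis1*, *Procr*, *Angpt1*, *Mecom*, *Hlf*, *Prdm16*, *Gata3*, and *Mllt3*, at −3.12 to −1.05. Members with high levels in progenitors moved less, with *Hoxa9* at -0.14 ± 0.15 (adjusted p = 0.624) and *Ltbp3* at -0.57 ± 0.17 (adjusted p = 0.0488). The number of lower genes was 10 without p53mut mouse 3, 15 to 19 without any other of the 7 mice, and 11 with only the 7 libraries fitted.

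Of 14 members of the GATA factor complex tested, 5 were lower and 0 higher, against 3.1% and 2.15% of all genes (median log2 fold change −0.69). *Gata2* (GRCm38 chr6:88193891-88207032) stood at 192, 125 and 217 CPM in the p53mut mice and 50.5, 21.8, 86.7 and 31.9 CPM in the NPmut mice (log2 fold change -1.8997 ± 0.37, adjusted p = 0.00725), so that the highest NPmut mouse, mouse 3, was below the lowest p53mut mouse. Control and NrasG12D mice had 149 ± 23.9 and 235 ± 13.5 CPM (mean ± SD, n = 3 each). *Gata1* (GRCm38 chrX:7959260-7978071) was at 46.3, 34.6 and 60.04 CPM in the p53mut mice and 11.1, 4.36, 24.6 and 20.2 CPM in the NPmut mice (log2 fold change -1.66 ± 0.43, adjusted p = 0.0300), and this call was lost when p53mut mouse 1, p53mut mouse 3, or NPmut mouse 1 was left out. *Zfpm1* (FOG1), the cofactor of both, stood at 307, 214 and 329.96 CPM in the p53mut mice and 60.2, 25.6, 123 and 115 CPM in the NPmut mice (log2 fold change -1.81 ± 0.39, adjusted p = 0.0133). *Klf1*, the erythroid Krüppel-like factor, was at 73.7, 67.7 and 109 CPM in the p53mut mice and 18.7, 8.29, 31.05 and 50.1 CPM in the NPmut mice (log2 fold change -1.65 ± 0.44, adjusted p = 0.0372), and NPmut mice 1 and 2 were the lowest. *Tal1* (SCL), the basic helix-loop-helix partner, was at 113, 92.2 and 118 CPM in the p53mut mice and 36.7, 20.8, 58.1 and 47.4 CPM in the NPmut mice (log2 fold change -1.41 ± 0.24, adjusted p = 0.00276) and kept its call in every setting run. *Lmo2*, the most abundant member, was not a DEG at 349, 265 and 346 CPM in the p53mut mice and 223, 265, 213 and 228 CPM in the NPmut mice (log2 fold change -0.46 ± 0.11, adjusted p = 0.0186). The number called was 2 without p53mut mouse 1, without p53mut mouse 3, with background reads as a term, or with only the 7 libraries fitted.

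Erythroid genes had their lowest levels in NPmut mice 1 and 2. Of 25 tested erythroid and megakaryocyte-erythroid progenitor genes, 5 were lower and 0 higher (median −1.11), and the medians of the list, relative to the p53mut mean on the log2 CPM scale, were −1.72 and −2.76 in NPmut mice 1 and 2 but −0.54 and −0.33 in mice 3 and 4. *Trib2*, a pseudokinase, fell from 47.9, 33.99 and 58.01 to 7.58, 2.198, 14.05 and 9.67 CPM (log2 fold change -2.497 ± 0.46, adjusted p = 0.00554), *Car2*, carbonic anhydrase 2, was at 421, 346 and 586 CPM in the p53mut mice and 119, 64.9, 273 and 221 CPM in the NPmut mice (log2 fold change -1.41 ± 0.38, adjusted p = 0.0346), and *Icam4*, an erythroid adhesion molecule, at 3.39, 3.69 and 5.15 CPM in the p53mut mice and 1.16, 1.23, 2.57 and 2.04 CPM in the NPmut mice (log2 fold change -1.24 ± 0.301, adjusted p = 0.0177). *Gata1* and *Klf1* are the other 2. *Car1* and *Ermap*, also erythroid, were not DEGs at -1.26 ± 0.42 (adjusted p = 0.0874) and -1.29 ± 0.51 (adjusted p = 0.146). The count was 1 without p53mut mouse 3 or without NPmut mouse 1, 2 without p53mut mouse 1, 9 without NPmut mouse 3 or mouse 4, 1 with only the 7 libraries, and 0 with background reads as a term. Of 13 heme synthesis genes 0 were DEGs by edgeR or DESeq2 (median −0.35), and 1 was higher and 3 lower at an unadjusted p under 0.05. *Alas1*, the first enzyme of the pathway in non-erythroid cells, was at 0.67 ± 0.22 (adjusted p = 0.0747), while *Cpox* was at -0.92 ± 0.24 (adjusted p = 0.0265).

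Megakaryocyte and platelet genes had the lowest median of all 36 lists, −2.67, with 15 of 21 tested genes lower and 0 higher. *Pf4* (GRCm38 chr5:90772435-90773383), platelet factor 4, stood at 25.2, 19.2 and 30.6 CPM in the p53mut mice and 3.34, 2.08, 5.15 and 1.02 CPM in the NPmut mice (log2 fold change -3.08 ± 0.35, adjusted p = 0.000325). *F2rl2*, the thrombin receptor PAR3, fell from 3.76, 3.61 and 3.88 to 0.404, 0.0771, 0.751 and 0 CPM (log2 fold change -3.53 ± 0.55, adjusted p = 0.00134), and *Itga2b* (CD41) was at 117, 60.1 and 132 CPM in the p53mut mice and 18.5, 7.98, 47.3 and 14.7 CPM in the NPmut mice (log2 fold change -2.22 ± 0.48, adjusted p = 0.0147). In each of the 15 every NPmut mouse lay below every p53mut mouse, as in 18 of the 21 genes tested, against 10.5% of all genes. The per-mouse medians of the list ran from −3.47 in NPmut mouse 2 to −1.85 in mouse 3, and the number of lower genes from 12 to 16 with each mouse left out. With at least 10 counts in every library 7 were lower and the median was −2.08. *Itgb3* (CD61) was at -0.63 ± 0.19 (adjusted p = 0.0525). *Thbs1* (thrombospondin 1) varied within both groups, from 2.88 to 87.4 CPM in p53mut and from 0.483 to 52.6 CPM in NPmut mice.

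Of 12 tested mast cell and basophil genes 4 were lower and 0 higher (median −1.26), and 7 were lower without NPmut mouse 3 and 2 with background reads as a term. These were *Slc18a2*, *Fcer1a*, the α chain of the IgE receptor, *Il1rl1*, the IL-33 receptor ST2, and *Clnk*, an adaptor of immune receptors. *Fcer1a* had 17, 21 and 18 counts in the p53mut mice and 4, 0, 2 and 0 counts in the NPmut mice (log2 fold change -3.89 ± 0.73, adjusted p = 0.00391). *Il1rl1* was at 45.9, 33.5 and 60.4 CPM in the p53mut mice and 9.35, 3.82, 21.4 and 13.7 CPM in the NPmut mice (log2 fold change -1.96 ± 0.405, adjusted p = 0.00978), and *Clnk* changed by -1.71 ± 0.298. *Cpa3*, *Hdc*, and *Mitf*, at -0.72 ± 0.45, -0.44 ± 0.17, and 0.31 ± 0.22, were not DEGs. Among 5 tested eosinophil genes *Prg2*, eosinophil major basic protein, was higher at 1.99, 5.09 and 1.56 CPM in the p53mut mice and 44.5, 16.6, 6.11 and 6.11 CPM in the NPmut mice (log2 fold change 2.69 ± 0.74, adjusted p = 0.0394), with NPmut mouse 1 above the rest, whereas *Epx* and *Prg3* were at 0.83 ± 0.45 and 1.52 ± 0.63 and were not DEGs. *Prg2* kept its call in 3 of the 7 fits with a mouse left out and lost it with background reads as a term.

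The letters AGATAA (either strand), the core to which GATA factors bind, were looked for in the 250 bases upstream of each gene's start. This hexamer was in 6.34% of 10434 promoters of tested genes, in 8.88% of those of the lower DEGs and in 7.57% of those of the higher DEGs, and it was in 6 of 12 mast cell and 6 of 19 erythroid promoters, but in 2 of 16 megakaryocyte promoters and 1 of 11 of the GATA factor complex, and in 4 of 10 promoters of immunity-related and guanylate-binding GTPases. A match describes the letters and is not a bound site. *Tal1* and *Fcer1a* are shown as a transcription factor and a mast cell gene with a match, and were picked after the values were seen. The *Tal1* window is chr4:115056176-115056425 on the + strand and the *Fcer1a* window chr1:173227230-173227379 on the − strand (RefSeq, GRCm38.p6), each printed 5′ to 3′ up to the base before the start with the match in capitals.
Tal1: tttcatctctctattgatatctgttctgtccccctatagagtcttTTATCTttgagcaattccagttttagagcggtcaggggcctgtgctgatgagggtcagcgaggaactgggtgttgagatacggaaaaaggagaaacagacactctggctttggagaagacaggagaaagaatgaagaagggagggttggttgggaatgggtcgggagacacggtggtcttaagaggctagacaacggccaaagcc
Fcer1a: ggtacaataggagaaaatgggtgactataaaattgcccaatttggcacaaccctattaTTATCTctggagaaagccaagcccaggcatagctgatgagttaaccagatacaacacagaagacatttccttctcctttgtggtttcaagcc

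Monocyte and macrophage genes were higher. Of 29 tested, 14 were higher and 0 lower, against 2.15% and 3.1% of all genes, and the median was 1.33. In 17 of them every NPmut mouse lay above every p53mut mouse, against 9.1% of all genes. Their summed level was 784 to 1440 CPM in the p53mut mice and 2198 to 3744 CPM in the NPmut mice. *Ctss*, cathepsin S, stood at 16.9, 19.02 and 16.04 CPM in the p53mut mice and 68.2, 119, 77.6 and 46.5 CPM in the NPmut mice (log2 fold change 2.17 ± 0.28, adjusted p = 0.000597), and *Ly86* (MD-1), a partner of the TLR-like receptor RP105, at 15.6, 30.2 and 14.8 CPM in the p53mut mice and 72.2, 129.5, 70.5 and 49.03 CPM in the NPmut mice (log2 fold change 1.998 ± 0.34, adjusted p = 0.00274). The colony-stimulating factor 1 receptor gene *Csf1r* was at 46.5, 93.6 and 42.8 CPM in the p53mut mice and 180.1, 184, 129 and 121 CPM in the NPmut mice (log2 fold change 1.33 ± 0.25, adjusted p = 0.00462), and p53mut mouse 2 was the highest of its group for it and for *Klf4*, *Ly86*, and *Irf8*. The other DEGs of the list were *Lgals3*, *Klf4*, *Irf5*, *Ccr2*, *Cx3cr1*, *Cybb*, *Ms4a6c*, *Mpeg1*, *Adgre1*, *F13a1*, and *Cd68*, at 1.10 to 3.75. *Ly6c2* and *Lyz2*, abundant in monocytes and granulocytes, were at 1.56 ± 0.46 (adjusted p = 0.0551) and 0.97 ± 0.38 (adjusted p = 0.136), and *Sirpa* at 0.998 ± 0.18 (adjusted p = 0.00297), just under 2-fold. Of the 29 genes 24 were positive and 5 negative. Genes of macrophages went both ways, as *Adgre1* and *Cd68* were among the higher DEGs. *C1qb* was at −1.71, *C1qc* at −1.43, and *Mrc1* at −0.67, none of them a DEG. The number of higher genes ran from 11 without NPmut mouse 2 to 18 without NPmut mouse 3.

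Dendritic cell genes rose in part. Of 14 tested, 6 were higher and 0 lower (median 1.72), against 2.15% and 3.1% of all genes. With at least 10 counts in every library 3 were called and the median was 0.58. The number higher was 4 without p53mut mouse 3, without NPmut mouse 1, or with background reads as a term, and 8 without NPmut mouse 4. Relative to the p53mut mean, the median of the list was 0.38 in NPmut mouse 4 and 1.96 in NPmut mouse 1. *Irf8* (GRCm38 chr8:120736358-120756694), which directs monocyte and dendritic cell fate, stood at 109, 188 and 90.5 CPM in the p53mut mice and 489.7, 616, 390.2 and 445 CPM in the NPmut mice (log2 fold change 1.91 ± 0.23, adjusted p = 0.000364). *Siglech*, a marker of plasmacytoid dendritic cells, had 4, 0 and 3 counts in the p53mut mice and 47, 62, 48 and 24 in the NPmut mice (log2 fold change 3.84 ± 0.74, adjusted p = 0.00481). *Itgax* (CD11c) was at 1.85, 0.664 and 0.811 CPM in the p53mut mice and 6.72, 4.05, 5.42 and 3.39 CPM in the NPmut mice (log2 fold change 2.15 ± 0.54, adjusted p = 0.0210). *Flt3* and *Runx2* were at 0.63 ± 0.31 (adjusted p = 0.232) and 0.43 ± 0.21 (adjusted p = 0.233). Among 17 myeloid transcription factors 6 were higher and 0 lower (median 0.76). These were *Klf4*, *Id2*, *Irf5*, *Irf8*, *Id1*, and *Cebpb*. *Irf5* was at 8.19, 17.3 and 11.1 CPM in the p53mut mice and 43.7, 63.7, 39.8 and 41.4 CPM in the NPmut mice (log2 fold change 1.95 ± 0.23, adjusted p = 0.000281). *Spi1* (PU.1) was at 87.8, 124 and 78.6 CPM in the p53mut mice and 164, 231, 141 and 121 CPM in the NPmut mice (log2 fold change 0.76 ± 0.203, adjusted p = 0.0280), and 1 NPmut mouse lay within the p53mut range. *Cebpa* and *Myb* were at 0.36 ± 0.16 and -0.31 ± 0.13.

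The genes of neutrophils and granulocyte-monocyte progenitors held 0 DEGs in the main edgeR fit among 21 tested, and 2 by DESeq2. With background reads as a term, limma voom, no filter, a replicate block, or only the 7 libraries, 1 was higher. The median was 0.65, with 17 positive and 5 of these at an unadjusted p under 0.05. It was −0.06 with limma voom and 0.19 with background reads as a term. Relative to the p53mut mean, the list median was −0.34 in NPmut mouse 3. *Mpo*, the most abundant gene of the list, was at 8512, 15271 and 7702 CPM in the p53mut mice and 12224, 17944, 11841 and 10644 CPM in the NPmut mice (log2 fold change 0.33 ± 0.24, adjusted p = 0.448), and the groups overlapped. *Elane* and *Ctsg* were at 0.77 ± 0.34 (adjusted p = 0.193) and 0.65 ± 0.21 (adjusted p = 0.0689). *S100a9*, an alarmin of mature neutrophils, ranged from 3.54 to 93.3 CPM among the NPmut mice. Lysosome genes were higher in 4 of 20 cases and lower in 0 (median 0.66), namely *Ctss*, *Ctsh*, *Lgmn*, and *Gla*, the last 3 at 1.98 ± 0.37, 1.81 ± 0.54, and 1.102 ± 0.26. *Psap*, *Lamp1*, and *Ctsb* were at 0.96 ± 0.203, 0.75 ± 0.21, and 0.598 ± 0.17, under 2-fold at adjusted p = 0.00827, 0.0390, and 0.0421. Without p53mut mouse 3 or with only the 7 libraries, 2 lysosome genes were called, and without NPmut mouse 3 or with background reads as a term, 7.

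TLR and NF-κB genes were higher in part. Of 26 genes for TLRs and their cofactors 5 were higher and 0 lower (median 0.62), and of 16 NF-κB subunits and inhibitors 4 were higher and 0 lower (median 0.67). Of all genes tested 2.15% were higher and 3.1% lower. *Tlr2*, the receptor for bacterial lipopeptides, was at 4.502, 8.11 and 5.5003 CPM in the p53mut mice and 31.1, 34.7, 9.38 and 14.4 CPM in the NPmut mice (log2 fold change 1.897 ± 0.403, adjusted p = 0.00919), and *Tlr9* and *Tlr13*, receptors for nucleic acids, changed by 1.87 ± 0.45 and 1.75 ± 0.44. *Unc93b1*, the chaperone that brings such receptors to the endosome, stood at 94.5, 151 and 84.99 CPM in the p53mut mice and 315, 447, 288 and 281 CPM in the NPmut mice (log2 fold change 1.597 ± 0.202, adjusted p = 0.000472) and was called in every setting run. *Tlr1* was not a DEG at 0.886, 1.696 and 0.289 CPM in the p53mut mice and 3.08, 3.47, 1.88 and 2.46 CPM in the NPmut mice (log2 fold change 1.53 ± 0.48, adjusted p = 0.0594). *Irak1*, a kinase, and *Cnpy3*, a chaperone of TLRs, were at 0.31 ± 0.09 and 0.41 ± 0.16. Without p53mut mouse 3, 2 of the 26 were called, and 3 without p53mut mouse 1, with background reads as a term, or with only the 7 libraries.

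All 4 NF-κB genes called encode inhibitors or atypical inhibitors. *Nfkbia* (GRCm38 chr12:55489410-55492647), encoding IκBα, stood at 18.8, 22.6 and 20.2 CPM in the p53mut mice and 57.6, 74.7, 43.3 and 67.3 CPM in the NPmut mice (log2 fold change 1.56 ± 0.19, adjusted p = 0.000330) and was called in every setting run. *Tnfaip3* (A20) was at 11.1, 13.7 and 14.5 CPM in the p53mut mice and 67.6, 37.4, 14.6 and 91.6 CPM in the NPmut mice (log2 fold change 2.003 ± 0.46, adjusted p = 0.0180), *Nfkbiz* (IκBζ) at 7.68, 9.29 and 10.02 CPM in the p53mut mice and 49.9, 19.9, 12.4 and 61.8 CPM in the NPmut mice (log2 fold change 1.99 ± 0.44, adjusted p = 0.0126), and *Nfkbid* at 7.82, 10.7 and 7.12 CPM in the p53mut mice and 39.1, 28.3, 10.8 and 55.3 CPM in the NPmut mice (log2 fold change 1.96 ± 0.399, adjusted p = 0.00773). NPmut mouse 3 was the lowest NPmut mouse for each of the 4. The subunit *Nfkb1* and the kinase *Ikbkb* were at 0.22 ± 0.101 and 0.26 ± 0.11, and neither was a DEG. The number called was 1 without p53mut mouse 3, with background reads as a term, or with only the 7 libraries, 2 without p53mut mouse 1, and 6 without NPmut mouse 2 or mouse 3. The *Nfkbia* promoter held GGGA, any base, and TTTCC (either strand), a form of the NF-κB site, whose first base lies 29 bases before the start. These letters were in 0.316% of all promoters of tested genes and in 1 of 251 promoters of higher DEGs. The window is chr12:55492648-55492797 on the − strand (RefSeq, GRCm38.p6), with the match in capitals.
Nfkbia: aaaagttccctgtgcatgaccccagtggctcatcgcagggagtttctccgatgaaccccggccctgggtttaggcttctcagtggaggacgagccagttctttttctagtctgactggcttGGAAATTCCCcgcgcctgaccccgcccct

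Targets of NF-κB were higher in 5 of 23 tested cases and lower in 0 (median 1.39). Besides *Tnf*, *Ccl3*, a chemokine, was at 0.812, 1.62 and 1.16 CPM in the p53mut mice and 10.3, 15.9, 1.07 and 17.8 CPM in the NPmut mice (log2 fold change 3.22 ± 0.72, adjusted p = 0.0124), and *Il1b*, encoding IL-1β, at 0.886, 0.147 and 0.695 CPM in the p53mut mice and 5.91, 6.86, 0.214 and 4.07 CPM in the NPmut mice (log2 fold change 2.87 ± 0.82, adjusted p = 0.0396). In both, NPmut mouse 3 lay within the p53mut range. *Ier3* and *Zc3h12a* (Regnase-1), which degrades inflammatory mRNAs, changed by 1.502 ± 0.35 and 1.39 ± 0.25. *Sod2*, *Tnfrsf1b*, and *Birc3* were at -0.09 ± 0.097, 0.27 ± 0.14, and 0.67 ± 0.14. Of the targets 1 was called with background reads as a term (median 0.803), 2 without p53mut mouse 1 or with only the 7 libraries, 3 without p53mut mouse 3, 10 by DESeq2, and 11 without NPmut mouse 3. *Il1b* kept its call in 1 of the 7 fits with a mouse left out, that without NPmut mouse 3. Of 14 inflammasome genes 2 were higher and 0 lower, against 2.15% and 3.1% of all genes (median 0.48), *Il1b* and the ATP receptor *P2rx7*, at 5.54, 8.92 and 7.295 CPM in the p53mut mice and 33.6, 23.95, 31.4 and 23.9 CPM in the NPmut mice (log2 fold change 1.96 ± 0.19, adjusted p = 7.71e-05), while *Txnip* and *Gsdmd* were at -0.81 ± 0.27 and 0.404 ± 0.14. The inflammasome count was 1 without p53mut mouse 1 or mouse 3, without NPmut mouse 1, 2, or 4, or with only the 7 libraries, and *P2rx7* kept its call in every setting run. Of 16 IL-6, JAK, and STAT genes 2 were higher, or 1 without p53mut mouse 1 or mouse 3 (median −0.08), *Osm*, encoding oncostatin M, at 5.46, 5.603 and 4.86 CPM in the p53mut mice and 19.2, 21.8, 3.91 and 35.1 CPM in the NPmut mice (log2 fold change 1.91 ± 0.49, adjusted p = 0.0269), and *Il6st* (gp130), at 87.4, 93.04 and 58.2 CPM in the p53mut mice and 233, 173, 179 and 167 CPM in the NPmut mice (log2 fold change 1.24 ± 0.17, adjusted p = 0.000643). *Il6ra* was at 0.897 ± 0.16 (adjusted p = 0.00318), under 2-fold, and *Jak1*, *Stat3*, and *Stat5b* at -0.43 ± 0.12, -0.27 ± 0.104, and -0.22 ± 0.1001.

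Of 19 chemokine and chemokine receptor genes 5 were higher and 1, *Pf4*, was lower (median 1.38). *Ccr2*, which lets monocytes leave the marrow, stood at 52.8, 50.6 and 37.3 CPM in the p53mut mice and 155, 187, 108 and 77.6 CPM in the NPmut mice (log2 fold change 1.49 ± 0.25, adjusted p = 0.00246), and *Cx3cr1* and *Ccl6* changed by 1.16 ± 0.29 and 1.16 ± 0.31. *Ccr9* was at 0.812, 0.369 and 0.405 CPM in the p53mut mice and 2.68, 1.35, 8.74 and 1.36 CPM in the NPmut mice (log2 fold change 2.74 ± 0.78, adjusted p = 0.0393), with NPmut mouse 3 the highest. *Ccl9* and *Cxcr4* were not DEGs at 0.37 ± 0.19 and 0.65 ± 0.23. The number higher was 1 without p53mut mouse 3 or with only the 7 libraries, 2 without p53mut mouse 1, 3 without NPmut mouse 1 or mouse 2 or with background reads as a term, 8 without NPmut mouse 3, and 9 by DESeq2.

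Immediate-early genes, which RAS-ERK and stress signals induce within minutes, stood higher in 3 of the 4 NPmut mice than in the other. Of 24 tested, 13 were higher and 0 lower (median 1.51). *Nr4a1*, an orphan nuclear receptor, stood at 2.51, 7.37 and 1.68 CPM in the p53mut mice and 198, 90.3, 6.27 and 125 CPM in the NPmut mice (log2 fold change 4.79 ± 1.03, adjusted p = 0.0170), *Atf3* at 0, 0.737 and 0 CPM in the p53mut mice and 9.39999, 13.5, 0.107 and 12.7 CPM in the NPmut mice (log2 fold change 5.23 ± 1.4004, adjusted p = 0.0356), and *Egr3* at 0.0738, 0.5898 and 0.232 CPM in the p53mut mice and 16.3, 4.09, 0.268 and 10.01 CPM in the NPmut mice (log2 fold change 4.66 ± 1.07, adjusted p = 0.0149). NPmut mouse 3 lay within the p53mut range for each of these 3. *Nr4a3* was at 1.18, 1.47 and 1.04 CPM in the p53mut mice and 45.6, 7.98, 0.643 and 14.3 CPM in the NPmut mice (log2 fold change 3.797 ± 1.02, adjusted p = 0.0375) with mouse 3 below all p53mut mice, and *Junb* at 21.3, 30.8 and 23.6 CPM in the p53mut mice and 77.6, 78.8, 32.5 and 88.2 CPM in the NPmut mice (log2 fold change 1.46 ± 0.28, adjusted p = 0.00493) with mouse 3 above them. The other DEGs were *Fos*, *Klf4*, *Klf2*, *Zfp36*, *Klf6*, *Ier3*, *Fosl2*, and *Ier2*, at 1.2599 to 3.44. Relative to the p53mut mean, the median of the list was 1.95, 1.43, −0.07, and 1.98 on the log2 CPM scale in NPmut mice 1, 2, 3, and 4, as the heat map of list medians by mouse shows. The number called followed single mice: 20 without NPmut mouse 3, 3 without p53mut mouse 1, 4 without p53mut mouse 3, 5 to 7 without NPmut mouse 1, 2, or 4, 3 with only the 7 libraries, and 0 with background reads as a term. *Jun* and *Jund* were at 1.05 ± 0.45 (adjusted p = 0.184) and 1.07 ± 0.39 (adjusted p = 0.107), and *Myc*, the most abundant member, at 471, 429 and 457 CPM in the p53mut mice and 341, 311, 399.7 and 334 CPM in the NPmut mice (log2 fold change -0.39 ± 0.105, adjusted p = 0.0305).

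**Figure D3:**
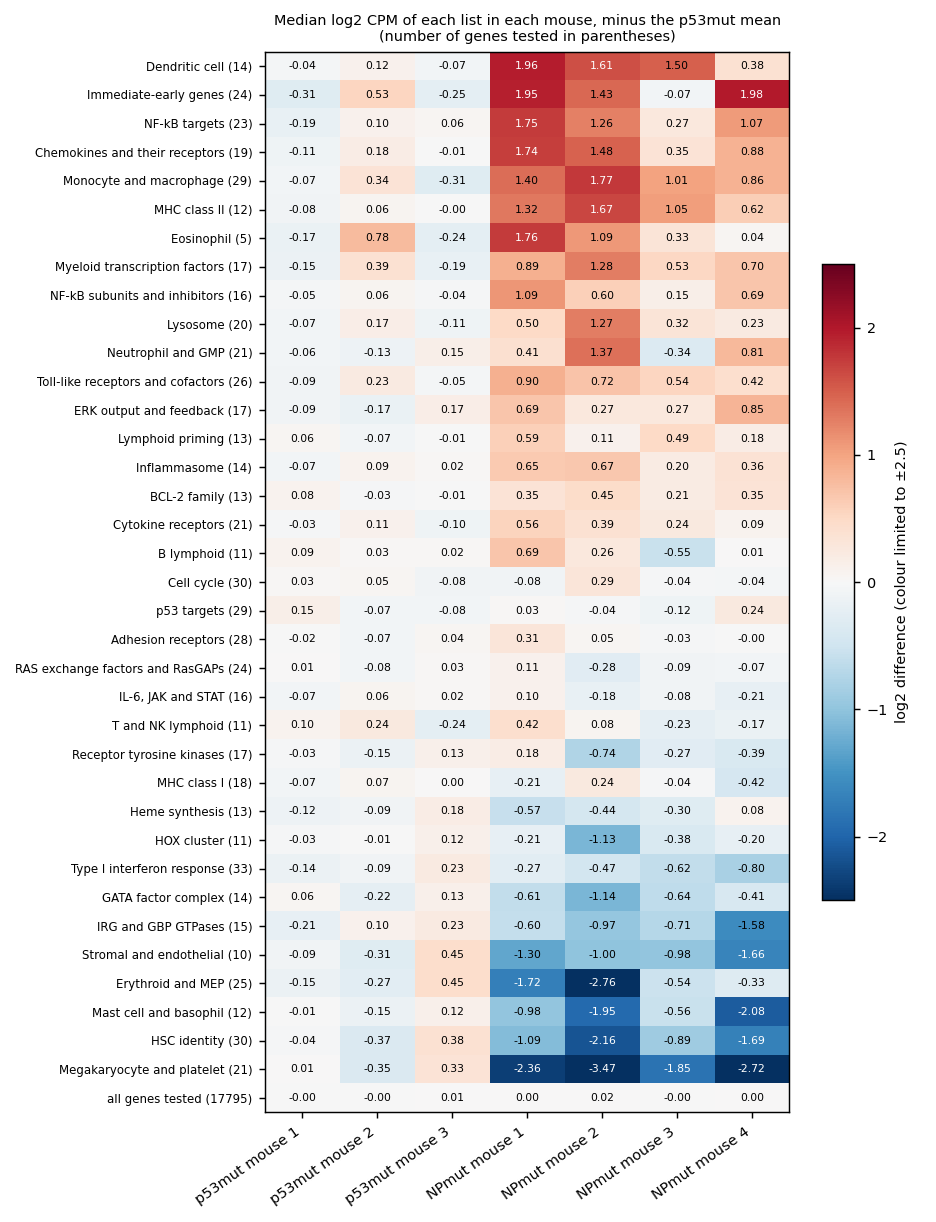
Median over the tested genes of each of the 36 lists (y axis) of the log2 CPM in each of the 7 compared mice (x axis) minus the mean of the p53mut mice, with red for higher and blue for lower. All 4 NPmut mice are blue for stem cell and megakaryocyte genes and red for monocyte and MHC class II genes, whereas NPmut mouse 3 stands at −0.07 for immediate-early genes and the other NPmut mice at 1.43 to 1.98.

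Outputs of ERK signaling were higher in 3 of 17 cases and lower in 0 (median 0.60), and higher in 6 without NPmut mouse 3. *Dusp5*, a nuclear ERK phosphatase, was at 7.01, 10.5 and 5.62 CPM in the p53mut mice and 68.3, 36.8, 8.42 and 41.8 CPM in the NPmut mice (log2 fold change 2.34 ± 0.54, adjusted p = 0.0170), and *Epha2* and *Ccnd1* (cyclin D1) changed by 2.78 ± 0.45 and 1.52 ± 0.296. *Ccnd1* was 15.3 ± 1.99 CPM in control and 39.2 ± 11.2 CPM in NrasG12D mice (mean ± SD, n = 3). *Egr1*, an ERK target, was at 15.6, 24.3 and 21.3 CPM in the p53mut mice and 76.8, 31.2, 17.5 and 157 CPM in the NPmut mice (log2 fold change 1.78 ± 0.62, adjusted p = 0.0979), and the feedback inhibitor *Spred1* at -0.299 ± 0.14. Of 24 RAS genes, exchange factors, and RasGAPs 1 was higher and 1 lower (median −0.05), against 2.15% and 3.1% of all genes. *Rasal1*, a RasGAP, was at 0.517, 0.516 and 0.289 CPM in the p53mut mice and 3.13, 1.58, 4.83 and 3.05 CPM in the NPmut mice (log2 fold change 2.83 ± 0.45, adjusted p = 0.00155), and *Dab2ip*, another RasGAP, at 35.7, 26.6 and 36.6 CPM in the p53mut mice and 15.3, 7.79, 17.9 and 12.1 CPM in the NPmut mice (log2 fold change -1.32 ± 0.24, adjusted p = 0.00365). *Rasgrp4*, an exchange factor, was not a DEG at 2.29, 1.11 and 2.03 CPM in the p53mut mice and 4.55, 4.24, 3.11 and 3.65 CPM in the NPmut mice (log2 fold change 1.102 ± 0.34, adjusted p = 0.0562), and *Ptpn11* and *Rasa3* were at -0.18 ± 0.09 and 0.11 ± 0.09.

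Of 17 receptor tyrosine kinase genes tested, 4 were higher and 4 lower (median −0.15). *Csf1r*, *Met*, *Ptk7*, and *Epha2* were higher, and *Tek*, *Tie1*, *Kdr*, and *Fgfr3* were lower. *Met*, the hepatocyte growth factor receptor, stood at 31.96, 57.8 and 29.7 CPM in the p53mut mice and 118, 111, 82.6 and 67.1 CPM in the NPmut mice (log2 fold change 1.25 ± 0.33, adjusted p = 0.0330) and *Ptk7*, a pseudokinase of WNT signaling, at 9.82, 8.77 and 9.38 CPM in the p53mut mice and 18.9, 18.4, 24.8 and 17.9 CPM in the NPmut mice (log2 fold change 1.1003 ± 0.27, adjusted p = 0.0168), each called in 3 of the 7 fits with a mouse left out. Without p53mut mouse 1 or mouse 3, 2 genes of the list were higher and 2 lower, and with background reads as a term 2 were higher and 3 lower. *Kdr* and *Fgfr3* were at or below 2.37 CPM in all 7 mice. *Kit* and *Igf1r* were at -0.66 ± 0.15 (adjusted p = 0.0120) and -0.61 ± 0.203 (adjusted p = 0.0753). Of 21 cytokine receptor genes 1, *Il10ra*, was higher at 1.22 ± 0.22, and 2 were lower, *Il1rl1* among them, against 2.15% and 3.1% of all genes (median 0.36). No member was called lower without p53mut mouse 3, with only the 7 libraries, or with background reads as a term, which gave 3 higher. *Csf2rb*, the common β chain for GM-CSF and IL-3, was at 69.4, 89.3 and 59.5 CPM in the p53mut mice and 153, 151, 112 and 122 CPM in the NPmut mice (log2 fold change 0.89 ± 0.15, adjusted p = 0.00215), with no overlap but under 2-fold. *Ifnar2* and *Ifngr1*, interferon receptor chains, were at 0.51 ± 0.15 (adjusted p = 0.0472) and 0.31 ± 0.16 (adjusted p = 0.245).

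MHC class II molecules present peptides on monocytes, dendritic cells, and B cells. Of 12 genes of this pathway tested, 8 were higher and 0 lower (median 1.2603), and each of the 4 NPmut mice had a positive median, 0.62 in mouse 4 to 1.67 in mouse 2. *Cd74*, the invariant chain, stood at 7.01, 15.8 and 9.09 CPM in the p53mut mice and 75.8, 84.3, 49.1 and 24.5 CPM in the NPmut mice (log2 fold change 2.47 ± 0.42, adjusted p = 0.00358), *H2-Aa* (GRCm38 chr17:34282744-34287823) at 3.32, 5.898 and 3.42 CPM in the p53mut mice and 27.7, 31.7, 18.7 and 8.99 CPM in the NPmut mice (log2 fold change 2.38 ± 0.38, adjusted p = 0.00174), and *H2-Eb1* at 4.13, 3.98 and 3.24 CPM in the p53mut mice and 18.1, 17.5, 9.28 and 9.08 CPM in the NPmut mice (log2 fold change 1.84 ± 0.304, adjusted p = 0.00189). None of the 3 overlapped between groups. *Ciita*, the transactivator of the locus, was at 1.99, 2.21 and 2.08 CPM in the p53mut mice and 10.1, 4.63, 6.27 and 3.22 CPM in the NPmut mice (log2 fold change 1.53 ± 0.37, adjusted p = 0.0178), and the other 4 DEGs, *H2-DMb2*, *Ifi30*, *H2-DMb1*, and *H2-Ab1*, were at 1.22 to 1.46. *Rfx5*, a factor that binds these promoters, was at -0.204 ± 0.16. Control mice had 2.91 ± 0.686 CPM of *H2-Aa* and NrasG12D mice 7.76 ± 1.55 CPM (mean ± SD, n = 3). Without p53mut mouse 1 or mouse 3, or with only the 7 libraries, 5 genes were called. Of 18 MHC class I genes tested, 0 were higher and 2 lower (median −0.15). *H2-Q7* and *H2-T24*, nonclassical genes whose reads can be shared with close paralogs, changed by -1.42 ± 0.202 and -1.28 ± 0.19, while *H2-K1* and *H2-D1* were at -0.26 ± 0.12 and 0.204 ± 0.15.

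The *H2-Aa* promoter is shown for a CCAAT box in the reverse orientation (ATTGG), a part of the Y element of MHC class II promoters. CCAAT (either strand) was in 36.4% of all promoters of tested genes, in 7 of 9 MHC class II and in 12 of 15 MHC class I promoters, and in 33.9% of those of higher DEGs. These letters were also in 18 of 23 promoters of cell cycle genes, a list with 0 DEGs. The window is chr17:34287824-34287973 on the − strand (RefSeq, GRCm38.p6), with the match in capitals.
H2-Aa: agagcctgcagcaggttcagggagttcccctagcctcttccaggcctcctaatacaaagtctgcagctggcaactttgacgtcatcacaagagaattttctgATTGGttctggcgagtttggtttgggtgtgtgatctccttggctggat

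Interferon-induced genes were lower in part. Every p53mut mouse had received pI-pC, an inducer of interferon, and no NPmut mouse had, so that genotype and injection cannot be told apart here. Of 33 tested genes of the type I interferon response 10 were lower and 0 higher (median −0.60), and of 15 immunity-related and guanylate-binding GTPase genes 5 were lower and 0 higher (median −1.09). *Oasl2* (GRCm38 chr5:114896936-114912234), an oligoadenylate synthetase-like protein, stood at 14.2, 12.98 and 21.02 CPM in the p53mut mice and 7.43, 5.28, 5.31 and 4.07 CPM in the NPmut mice (log2 fold change -1.53 ± 0.22, adjusted p = 0.000905), and *Ddx58* (RIG-I), a sensor of viral RNA, at 29.1, 20.9 and 30.9 CPM in the p53mut mice and 11.3, 6.98, 10.5 and 8.48 CPM in the NPmut mice (log2 fold change -1.53 ± 0.197, adjusted p = 0.000472). *Oas2* and *Ifi44* changed by -1.81 ± 0.34 and -1.55 ± 0.37. The other 6 DEGs were *Usp18*, *Rtp4*, *Ifit1*, *Ifih1*, *Samd9l*, and *Oas3*, at −1.47 to −1.14. *Eif2ak2* (PKR), *Parp14*, and *Irf9* were at -0.44 ± 0.12, -0.56 ± 0.16, and -0.25 ± 0.14. Not all members leaned this way, since 7 of the 33 were positive, among them *Mx1* at 0.99 and *Ifi27l2a* at 1.20. Without p53mut mouse 3, 5 of the 33 were called, and with only the 7 libraries, 6.

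Among the GTPases, *Tgtp2* stood at 27.1, 29.6 and 38.4 CPM in the p53mut mice and 8.69, 7.44, 17.9 and 3.82 CPM in the NPmut mice (log2 fold change -1.73 ± 0.36, adjusted p = 0.00861) and *Gbp2* at 16.1, 13.8 and 19.6 CPM in the p53mut mice and 8.14, 8.25, 8.04 and 4.58 CPM in the NPmut mice (log2 fold change -1.18 ± 0.19, adjusted p = 0.00189). *Irgm2* (GRCm38 chr11:58199618-58222782) was at 14.5, 11.3 and 15.3 CPM in the p53mut mice and 5.96, 5.52, 9.92 and 4.16 CPM in the NPmut mice (log2 fold change -1.09 ± 0.23, adjusted p = 0.00801). *Iigp1* and *Tgtp1* were lower at -2.06 ± 0.43 and -1.85 ± 0.44, and *Tgtp1* and *Tgtp2* are near-identical copies whose reads may be split between them. *Gbp3*, *Gbp7*, and *Irgm1* were at 0.64 ± 0.21 (adjusted p = 0.0762), -0.58 ± 0.12 (adjusted p = 0.00735), and -0.91 ± 0.17 (adjusted p = 0.00378). Without p53mut mouse 3, 1 GTPase gene was lower, with only the 7 libraries 2 were, and with background reads as a term 1 was lower and 1 higher. The letters GAAA, any 2 bases, and GAAA again (either strand), the core of the interferon-stimulated response element, were in 2.71% of all promoters of tested genes, in 9 of 10 GTPase and in 9 of 23 type I interferon response promoters, and in 4.96% and 5.18% of those of the lower and the higher DEGs. *Irgm2* (chr11:58214827-58214976, + strand) and *Tgtp2* (chr11:49064213-49064362, − strand) are shown because their matches lie within 70 bases of the RefSeq start used (GRCm38.p6, match in capitals). For *Irgm2* this start lies inside the gene coordinates given above, downstream of their first base.
Irgm2: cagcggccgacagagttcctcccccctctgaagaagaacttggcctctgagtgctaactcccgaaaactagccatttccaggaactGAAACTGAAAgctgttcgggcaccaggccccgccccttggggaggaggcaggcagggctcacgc
Tgtp2: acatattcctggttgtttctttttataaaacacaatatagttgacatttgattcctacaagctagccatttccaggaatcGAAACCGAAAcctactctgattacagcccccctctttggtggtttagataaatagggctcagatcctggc

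Of 29 canonical p53 targets tested, 2 were higher and 1 lower, against 2.15% and 3.1% of all genes (median 0.01). With background reads as a term 0 were called in either direction, and without NPmut mouse 3, 5 were higher and 2 lower. *Pmaip1* was 1 of those higher, and *Cdkn1a* (p21), the inhibitor of cyclin-dependent kinases, was at 5.83, 3.02 and 2.14 CPM in the p53mut mice and 14.8, 10.2, 5.31 and 13.1 CPM in the NPmut mice (log2 fold change 1.57 ± 0.38, adjusted p = 0.0176). *Eda2r* was called lower on 13, 3 and 0 counts in the p53mut mice and 0, 1, 0 and 0 in the NPmut mice, so that no fold is given. *Xpc*, of DNA repair, and *Mdm2*, which limits p53, were at 0.31 ± 0.105 and 0.296 ± 0.14. *Pmaip1* was also the only DEG among 13 BCL-2 family genes, of which 0 were called with background reads as a term (median 0.40), with *Mcl1* at 131, 147 and 141 CPM in the p53mut mice and 226, 225, 161 and 214 CPM in the NPmut mice (log2 fold change 0.56 ± 0.12, adjusted p = 0.00768) and *Bcl2* at 0.55 ± 0.15 (adjusted p = 0.0318). Of 30 cell cycle genes 0 were DEGs by edgeR, by DESeq2, or in any other setting run (median 0.02, with 2 higher and 1 lower at an unadjusted p under 0.05), and their summed level was 6840 to 7374 CPM in the p53mut and 6947 to 7547 CPM in the NPmut mice. *Mki67* was at 2229, 2267 and 2094 CPM in the p53mut mice and 2078, 1248, 1971 and 2734 CPM in the NPmut mice (log2 fold change -0.13 ± 0.19, adjusted p = 0.723) and *Top2a* at -0.09 ± 0.11. Of 11 *Hox* genes 2 were lower, *Hoxb2* at -2.83 ± 0.599 and *Hoxb3* at -1.22 ± 0.29 (median −0.41), or 1 without p53mut mouse 3, with background reads as a term, or with only the 7 libraries, while *Hoxa7* and *Hoxb4* were at 0.26 ± 0.15 and -0.18 ± 0.23.

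Lymphoid and stromal lists held a few DEGs each, from 1 of 13 tested genes in the lymphoid-priming list to 5 of 10 in the stromal list, against 5.24% of all genes. Among 11 B-lymphoid genes *Ighm* was higher at 78.5, 96.3 and 50.8 CPM in the p53mut mice and 224, 305, 184 and 149 CPM in the NPmut mice (log2 fold change 1.52 ± 0.24, adjusted p = 0.00159) and *Igkc* lower at -2.53 ± 0.65, a call lost without p53mut mouse 1 or mouse 3, without NPmut mouse 1, or with background reads as a term, which gave 2 higher, with *Cd79b* at 0.93 ± 0.23 (adjusted p = 0.0185), *Rag2* at 0.36 ± 0.38, and *Cd22* at 0.97 ± 0.503 (median 0.18). Of 11 T- and NK-cell genes *Klrd1* and *Tcf7* were higher at 2.43 ± 0.64 and 1.04 ± 0.31 and *Lat* was lower at -1.41 ± 0.38, and 0 were called without p53mut mouse 1 or mouse 3 or with background reads as a term (median −0.14), while *Lck* and *Thy1* were at 0.47 ± 0.34 and -1.24 ± 0.43. Of 13 lymphoid-priming genes *Ccr9* was the only DEG and was called in 2 of the 7 fits with a mouse left out (median 0.57), and *Ikzf1* was at -0.1002 ± 0.103. Of 10 tested stromal and endothelial genes *Kdr*, *Bgn*, *Col1a2*, and *Plvap* were lower at -3.09 ± 0.73, -3.002 ± 0.53, -2.67 ± 0.58, and -1.4996 ± 0.31, and *Lpl* was higher at 2.48 ± 0.43 (median −1.11). The number lower was 1 without p53mut mouse 3 and 2 with background reads as a term or with only the 7 libraries. The summed level of the stromal list was 46.2 to 73.1 CPM in the p53mut and 37.95 to 78.08 CPM in the NPmut mice, and its part in the lower genes shared with endothelium, such as *Tek* and *Tie1*, was not tested. *Emcn* was at -1.81 ± 0.57 (adjusted p = 0.0593).

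Adhesion receptor genes moved both ways, with 4 higher and 4 lower of 28 (median −0.03). *Itga1*, the α1 integrin chain, stood at 15.7, 30.1 and 11.8 CPM in the p53mut mice and 112, 83.5, 76.1 and 109 CPM in the NPmut mice (log2 fold change 2.31 ± 0.35, adjusted p = 0.00174). *Itgb7*, *Selplg* (PSGL-1), and *Itgax* rose by 1.69 ± 0.204, 1.15 ± 0.22, and 2.15 ± 0.54. *Selp* (P-selectin), *Itga2*, *Itga2b*, and *Esam* were lower, with *Selp* at 19.2, 15.3 and 25.1 CPM in the p53mut mice and 4.85, 7.17, 5.31 and 3.48 CPM in the NPmut mice (log2 fold change -1.91 ± 0.28, adjusted p = 0.000936) and *Itga2* at -1.94 ± 0.32. *Itga4* and *Cd44* were at -0.58 ± 0.16 (adjusted p = 0.0319) and 0.36 ± 0.12. The plot of all 36 lists sets these members side by side.

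**Figure D4:**
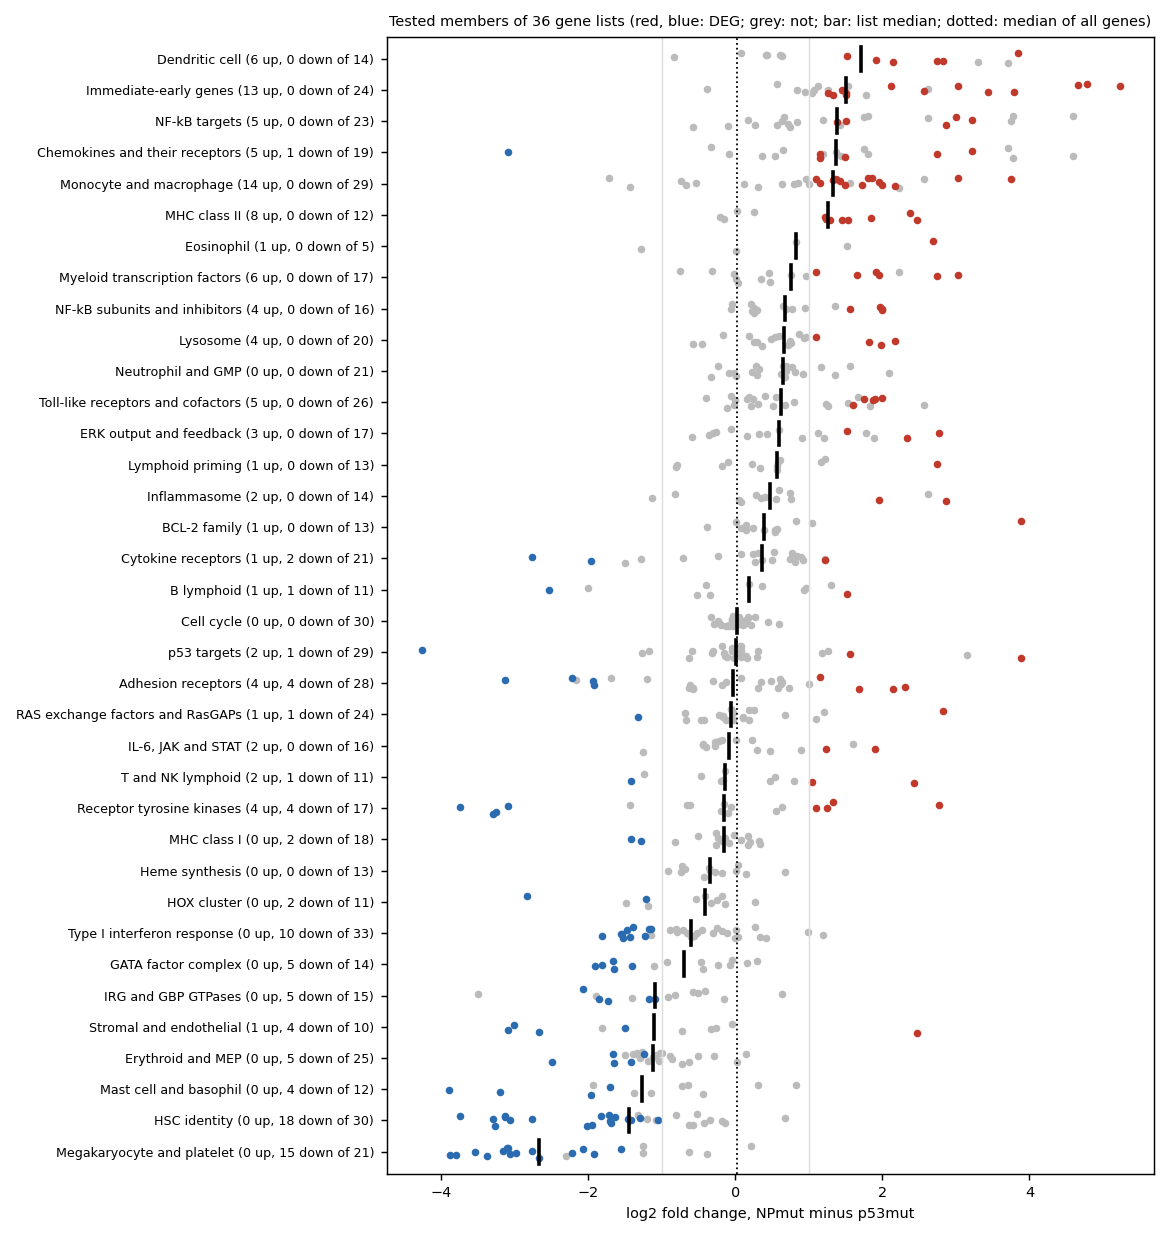
Log2 fold change of NPmut minus p53mut (x axis) for each tested member of the 36 gene lists (y axis, ordered by median), with red points for DEGs higher in NPmut, blue for lower, grey for the rest, a black bar at the list median, and a dotted line at the median of all genes. Megakaryocyte and platelet genes lie farthest to the left (median −2.67) and dendritic cell genes farthest to the right (median 1.72).

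The difference between NPmut and p53mut mice was then set beside the difference between NrasG12D and control mice, which shares no mouse with it. Both add Nras G12D/+, but the second has wild-type p53 and pI-pC in both arms. Among the 382 higher DEGs the median difference of NrasG12D minus control was 0.19 (log2), and 66.5% had the same sign. Among the 551 lower DEGs it was −0.24, and 64.6% had the same sign, against 52.1% of all genes. Across all 17795 genes Pearson's r between the 2 differences was 0.23, as a description across genes, which are not independent replicates. Background reads from olfactory and vomeronasal receptor genes took 37.8 to 44.4 CPM in NrasG12D and 103 to 191 CPM in control mice. They were thus lower with Nras G12D/+ in both comparisons, and their part in the shared signs was not tested. The interaction term, (NPmut minus p53mut) minus (NrasG12D minus control), passed the same thresholds for 72 genes in the positive (0.405%) and 167 in the negative direction (0.938%), and 57 and 119 of these were higher and lower DEGs. These counts depended on single mice. Without any 1 of the 3 control or 3 NrasG12D mice there were 6 to 20 positive and 55 to 87 negative terms. Without p53mut mouse 1, 2, or 3 there were 11, 174, or 7 positive and 79, 216, or 60 negative terms. Without NPmut mouse 1, 3, or 4 there were 27, 204, or 43 positive and 112, 327, or 130 negative terms.

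*Hopx*, *Glt1d1*, and *Lpl* had the largest positive terms among DEGs without overlap and with a mean of at least 1 on the log2 CPM scale. *Hopx* was 1.15 ± 0.811 CPM in control, 0.649 ± 0.119 in NrasG12D, 0.746 ± 0.391 in p53mut, and 5.35 ± 0.919 in NPmut mice (mean ± SD), a term of 3.66 ± 0.68, adjusted p = 0.0183. *Glt1d1*, a glycosyltransferase-like gene, and *Lpl*, lipoprotein lipase, had terms of 3.56 ± 0.74, adjusted p = 0.0313, and 3.36 ± 0.62, adjusted p = 0.0180. By the same limits the largest negative terms were those of *Cavin2*, *Tek*, and *Pf4*, at -3.97 ± 0.65, adjusted p = 0.0109, -3.84 ± 0.69, adjusted p = 0.0180, and -3.72 ± 0.499, adjusted p = 0.00323. *Iigp1*, with a lower mean, was at -4.08 ± 0.61, adjusted p = 0.00568. *Pf4* was 20.3 ± 5.38 CPM in control and 31.5 ± 4.04 CPM in NrasG12D mice. *Gata2* had a term of -2.55 ± 0.54, adjusted p = 0.0387. Interferon genes also had negative terms. *Oasl2* was 14.5 ± 1.65 CPM in control and 43.02 ± 10.5 CPM in NrasG12D mice, with a term of -3.102 ± 0.32, adjusted p = 0.000857, and *Oas2* had a term of -3.72 ± 0.48, adjusted p = 0.00263. *Irf8* and *Nfkbia* had positive terms of 1.49 ± 0.32, adjusted p = 0.0376, and 1.17 ± 0.27, adjusted p = 0.0464. Of the 8 MHC class II DEGs *Ifi30* had a term that passed, 1.19, and the others did not pass, such as *H2-Aa* at 0.96 ± 0.53, adjusted p = 0.399. *Ccnd1* had a term of 0.16 ± 0.42, adjusted p = 0.895. For *Nr4a1* the term was 4.84 ± 1.44, adjusted p = 0.130, with the 4 NPmut mice spread over a range of 6.27 to 198 CPM.

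**Figure D5:**
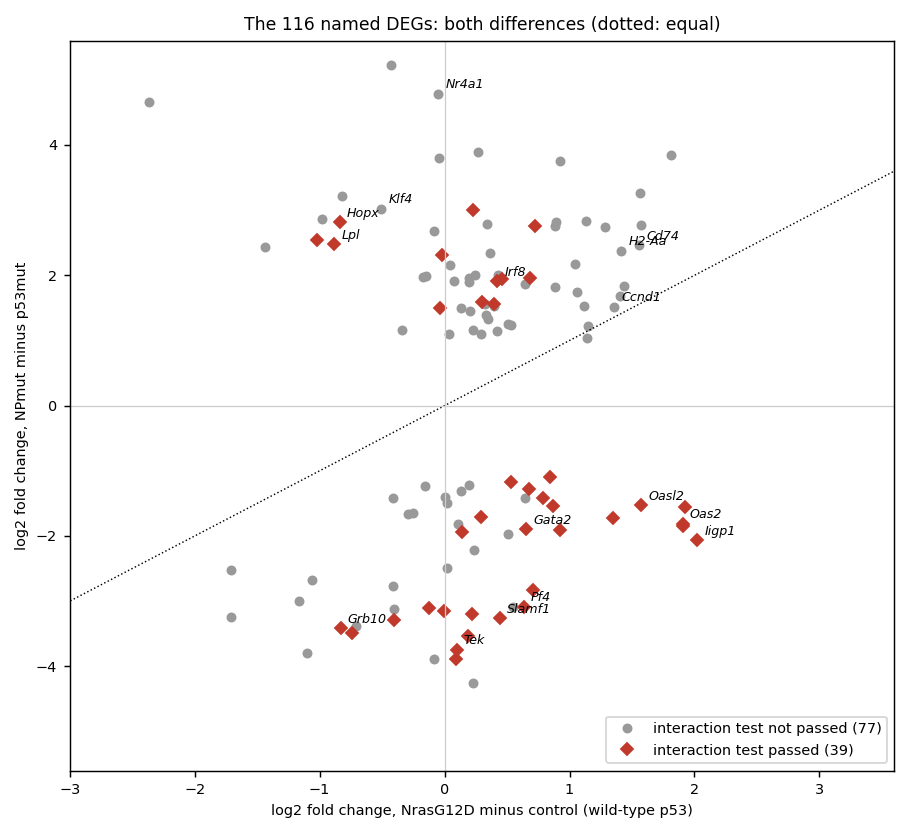
Log2 fold change of NrasG12D minus control (x axis) against that of NPmut minus p53mut (y axis) for the 116 DEGs named by the fixed rule, with diamonds where the 2 differences differed in the interaction test (39 genes) and circles where that test was not passed (77). Points on the dotted line would have equal differences. *Oas2*, *Oasl2*, and *Iigp1* lie to the lower right, above 1.5 on the x axis and below −1.5 on the y axis, while *Cd74* and *Ccnd1* lie to the upper right.

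Other promoter letters were counted in the same windows. TGANTCA, the AP-1 site, was in 4.16% of all promoters of tested genes, in 10.4% of those of the higher and in 5.74% of those of the lower DEGs. GAGGAAGT, a PU.1-type ETS site, was in 2.63% of all, in 5.98% of those of the higher and in 1.04% of those of the lower DEGs, and in 3 of 24 monocyte promoters. TGACGTCA, the cAMP response element, was in 2.68% of all, in 1.20% of those of the higher and in 0.783% of those of the lower DEGs. These are descriptions of letters in 250 bases and say nothing of binding.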

How the data were processed

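RNA was taken from 50000 sorted Lin-cKit+ bone marrow cells a mouse (RNeasy Micro kit) and made into libraries with the SMARTer Stranded Total RNA-Seq Pico kit. The authors deposited 1 table of raw read counts for 54838 genes in 13 libraries, with GENCODE identifiers. The submitters' processing notes name STAR 2.6.1d, R 3.6.1, DESeq2 1.26.0, and GRCm38.p6, without their roles. The counting program and its strand setting are not given in the sources used here, so antisense and overlapping genes are uncertain.

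From the counts, genes were kept by edgeR's filter (17795) and fitted over all 4 groups with TMM factors in edgeR 4.0.16 (R 4.3.3, limma 3.58.1). NPmut minus p53mut, and its difference from NrasG12D minus control, were tested by 2-sided quasi-likelihood tests with Benjamini-Hochberg adjustment over all genes tested. A DEG has an adjusted p under 0.05 and at least a 2-fold change. SE is that of the log2 fold change, and CPM values are TMM scaled. Nothing states that the mice of a group came from separate litters or cages. The p-values rest on a spread estimated jointly over the mice of all 4 groups. NPmut mice varied more than the rest (median SD of log2 CPM 0.35, against 0.20 in control, 0.22 in p53mut, and 0.21 in NrasG12D mice). The shared estimate can thus be too small for the NPmut mice. On simulated counts (17328 genes), 87% of genes changed by 1.5 and 99% of those changed by 2.5 on the log2 scale were recovered in the NPmut minus p53mut test, with 9 false calls. The simulation gave a gene the same spread in all groups and changed only genes with ample counts. Its rates therefore need not hold for genes with few counts or for the wider spread of the NPmut mice.

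The comparison, the 36 gene lists, and the rule for named genes were chosen with earlier results of these data known. The rule took the 10 largest DEGs in each direction without overlap and at a mean log2 CPM of 1 or more, up to 4 DEGs a direction in each list (all where a direction had 5 or fewer), up to 3 abundant members that were not DEGs (printed in part), genes that the study names, the 3 largest interaction terms a direction among DEGs by the same limits, the 5 genes that varied most among NPmut mice, and *Nras*, *Trp53*, *Kit*, and lineage markers. A few genes within the rule or the lists are counted but not reported here by name. List members named beyond it, and the promoters shown, were chosen after their values were seen. Promoters of 10434 tested genes came from RefSeq tables of GRCm38.p6, and gene coordinates from GENCODE M21. The RefSeq start nearest the GENCODE gene start was used, with no limit on the distance between them.

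Alternatives were DESeq2 size factors, library totals, no filter, at least 10 counts in every library, DESeq2 1.42.0, limma voom with sample weights, a replicate block, sex, background reads, only the 7 libraries, and each mouse left out.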

Additional observations from a re-analysis of the deposited data

Results flagged for a closer look

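1 of the 4 NPmut mice stood apart from the others for 19 of 242 named genes, in that its gap to the nearest other mouse took a larger share of the range of log2 CPM over the group than Dixon's 95% critical value for 4 samples. Chance flags about 1 in 20 groups. NPmut mouse 2 stood apart as the highest for *Cnpy3* (0.892), *H2-K1* (0.856), *Eda2r* (1), *Ctsb* (0.851), and *Ifi30* (0.840). NPmut mouse 3 stood apart as the highest for *Ptk7*, at 0.841 of the range. NPmut mouse 2 stood apart as the lowest for *Runx2* (0.830) and *Itga4* (0.911). NPmut mouse 3 stood apart as the lowest for *Pmaip1* (0.918), *Klf4* (0.857), *Il1b* (0.832), *Atf3* (0.912), *Mcl1* (0.831), *Junb* (0.871), and *Klf6* (0.886). NPmut mouse 4 stood apart as the lowest for *Tlr13* (0.830), *Gbp2* (0.956), *Epha2* (0.831), and *C1qb* (0.832). The 4 NPmut mice had 0, 1, 0 and 0 counts of *Eda2r*, so that its value rests on 1 read and shows no mouse apart.

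The difference between NPmut and p53mut mice differed from that between NrasG12D and control mice, by the interaction term of the edgeR quasi-likelihood fit (adjusted p under 0.05, at least 1 on the log2 scale), for 52 of 242 named genes. Of all 17795 genes tested, 0.405% passed in the positive and 0.938% in the negative direction. Many named genes were chosen as DEGs of this comparison, and some by this term, so that the 52 are not a fair share to set against all genes. Among genes of the type I interferon response the term was −3.72 for *Oas2*, −3.51 for *Ifit1*, −3.47 for *Ifi44*, −3.36 for *Usp18*, −3.102 for *Oasl2*, −3.08 for *Rtp4*, −2.696 for *Oas3*, −2.404 for *Ddx58*, −1.72 for *Samd9l*, −1.53 for *Ifih1*, −1.35 for *Parp14*, and −1.17 for *Irf9*. Among immunity-related and guanylate-binding GTPases the term was −4.08 for *Iigp1*, −3.76 for *Tgtp1*, −3.08 for *Tgtp2*, −1.94 for *Irgm2*, −1.71 for *Gbp2*, and −1.51 for *Irgm1*. Among MHC class I genes the term was −2.21 for *H2-Q7* and −1.95 for *H2-T24*. Among stem cell genes the term was −3.84 for *Tek*, −3.704 for *Slamf1*, −2.89 for *Tie1*, and −2.86 for *Vwf*. Among megakaryocyte and platelet genes the term was −3.97 for *Cavin2*, −3.73 for *F2rl2*, −3.72 for *Pf4*, −3.16 for *Gp1ba*, and −2.84 for *Selp*. Among genes of the GATA factor complex the term was −2.55 for *Gata2*. Among mast cell genes the term was −3.41 for *Slc18a2* and −1.9998 for *Clnk*. Among genes outside these lists it was −3.54 for *Hoxb2*, −2.98 for *Timp3*, −2.75 for *Gdf3*, −2.59 for *Grb10*, and −2.08 for *Itga2*. Positive terms were 3.66 for *Hopx*, 3.56 for *Glt1d1*, 3.36 for *Lpl*, 2.78 for *Tnf*, 2.33 for *Itga1*, 2.03 for *Id2*, 2.01 for *Cybb*, 1.53 for *Ccr2*, 1.49 for *Irf5*, 1.49 for *Irf8*, 1.46 for *F13a1*, 1.298 for *Unc93b1*, 1.28 for *P2rx7*, 1.19 for *Ifi30*, and 1.17 for *Nfkbia*. These terms hold the same limits of genotype, stage, and pI-pC as the comparison itself.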

How the results depend on the processing

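Of 151 named DEGs, 67 kept their call in every alternative in which they were tested, 78 with each of the 7 mice left out and 71 in the other settings, and 0 changed sign. Calls were lost for 67 with background reads as a term, 68 without p53mut mouse 3, 57 with only the 7 libraries, 45 without p53mut mouse 1, 29 with limma voom, and 1 with DESeq2 size factors. Fewer samples and fewer residual degrees of freedom entered the fits without a mouse or with 7 libraries. The fit of the 7 libraries also took its spread from those mice alone. The cause of the lost calls was not tested. Higher DEGs numbered 213 with only the 7 libraries and 169 to 465 with a mouse left out, and lower DEGs 310 with at least 10 counts in every library, 313 with background reads as a term, 265 with only the 7 libraries, and 264 to 687 with a mouse left out. Interaction terms numbered 308 positive and 343 negative with no filter, 248 and 367 by DESeq2, 159 and 276 by limma voom, and 6 to 204 and 55 to 327 with a mouse left out. Of 118 genes of the naming rule that were not DEGs, 31 changed sign in some alternative. Of those printed, *Thbs1* was at 0.12 with limma voom, 0.84 with sex as a term, and −1.02 to 1.82 with a mouse left out, *Egr1* at −0.30 and *Mdm2* at −0.042 with background reads as a term, *Mki67* at −0.32 to 0.037 with a mouse left out, and *S100a9* at −0.24 with limma voom. No other scaling moved the median of all genes by over 0.1. Depth limits the 252 lower and 63 higher DEGs with a mean below 1 on the log2 CPM scale.

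The replicate numbers did not pair the mice, as the correlations of the deviations of same-numbered p53mut and NPmut mice were −0.02, 0.19, and 0.12. A replicate block gave 398 higher and 623 lower DEGs, and 135 positive and 231 negative interaction terms, and 17 of the named DEGs lost their call under it.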

Other observations

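Among the genes that varied most between the 4 NPmut mice, which were picked by that spread and are given as values only, *Thbs1* was at 52.6, 20.2, 0.483 and 30.5 CPM in mice 1 to 4, *S100a9* at 36.4, 93.3, 3.54 and 87.2 CPM, and *Nr4a1* at 198, 90.3, 6.27 and 125 CPM. The lowest value of each of the 3 was that of NPmut mouse 3. In the p53mut mice the same genes were at 2.88, 87.4 and 11.5 CPM, 38.1, 12.9 and 36.2 CPM, and 2.51, 7.37 and 1.68 CPM.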
